A study of Mus musculus with 14 samples.

Results

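The genes described here are 10 genes listed as suppressive effectors of regulatory T cells (Tregs). They are the cytokine genes Il10 and Ebi3, the TGF-beta genes Tgfb1, Lrrc32 and Itgb8, and the secreted proteins Fgl2 and Lgals1. The others are the ectoenzymes Entpd1 and Nt5e and the receptor Gpr83. Gpr83 is a Treg-enriched transcript, and the name effector gene below gives its place on this list, not a shown role in suppression. The 10 genes were listed by name, with earlier results of these data known, so shares of them that passed are a description only. All 10 were found by NCBI Gene number among the 27179 genes of the count table. Tregs had been sorted for Foxp3-driven YFP from the spleen and from MC38 tumors, a transplanted mouse colon carcinoma, grown in the flank to endpoint, and their polyadenylated RNA was sequenced from ultra-low input. WT libraries came from B6.IL23RWT FoxP3Cre-YFP mice (IL23RWT/WT) and Flox libraries from B6.IL23RFlox FoxP3Cre-YFP mice (IL23RFlox/Flox), with 4 WT and 3 Flox libraries in each tissue. All groups therefore carried the Foxp3-driven Cre and YFP and a tumor, and the same driver both deletes the floxed gene and marks the cells that were sorted. The series asks how Flox and WT Tregs differ within each tissue, and the spleen and tumor libraries also allow the tissues to be compared. The labels do not say whether libraries came from separate or pooled mice, or whether spleen and tumor libraries share a mouse, and every p-value refers to the spread among these libraries alone.

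Tregs act on neighbouring cells by secreting inhibitory cytokines, by activating latent TGF-beta held at their surface, and by converting extracellular ATP, a danger signal, into adenosine, which inhibits T cells. Il10 encodes interleukin-10. Ebi3 encodes a subunit shared by IL-27 and IL-35. The protein of Lrrc32, GARP, tethers the latent form of the Tgfb1 product to the Treg surface, and the integrin chain encoded by Itgb8 pairs with the Itgav product to release it. Entpd1 (CD39) degrades ATP and ADP to AMP, and Nt5e (CD73) turns AMP into adenosine.

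The libraries held 4859099 to 10333892 counts. Levels are in CPM, counts scaled to a common library total after TMM adjustment, and each log2 fold change is given ± SE. The 7 spleen and 7 tumor libraries held Foxp3 at 103 to 268 and 98.2 to 231 CPM, so the defining Treg gene was present in every library. Its log2 change in tumor was -0.13 ± 0.29 (edgeR adjusted p = 0.783). Of 6 Treg markers, 5 had higher values in tumor and 3 passed. Their sum was 2270 to 3826 CPM in spleen and 4726 to 9192 CPM in tumor (2-sided exact permutation p = 0.000583). Il2ra was 410 to 659 CPM in spleen and 944 to 2482 CPM in tumor. Ctla4 was 37 to 209 and 542 to 2192 CPM, and Ikzf2 706 to 2381 and 2511 to 3979 CPM. Cd4 and Cd3e overlapped between the tissues. Il23r, which encodes the IL-23 receptor subunit targeted in the Flox mice, was at most 0.893 CPM in any library. Its counts went against the labels, with 17 over the 3 tumor Flox libraries and 2 over the 4 tumor WT libraries. In spleen they were 10 over the 3 Flox libraries, 9 of them in Spleen Flox 3, and 2 over the 4 WT libraries. The labels do not say which part of the gene the Flox allele loses. The genotypes are accordingly those of the labels. Summed B cell markers were 445 to 2124 CPM in spleen and 49.5 to 310 CPM in tumor (2-sided exact permutation p = 0.000583, adjusted over 7 marker lists 0.00204). Pax5 was at 0 in all tumor libraries and low in spleen too, at 0 to 1.79 CPM. Ighm of the same list was 193 to 405 CPM in spleen and 43.5 to 302 CPM in tumor. Within spleen the summed B cell markers were 740 to 2124 CPM in the WT libraries and 445 to 580 CPM in the Flox libraries. Summed macrophage markers were 196 to 404 CPM in spleen and 28.3 to 238 CPM in tumor. Apoe made up most of the spleen sum (mean 190.3 CPM in spleen and 42.6 CPM in tumor), whereas C1qa, C1qb and C1qc of the same list passed as higher in tumor, at no more than 11.6 CPM. Summed fibroblast and endothelial markers were 55.3 to 164 CPM in spleen and 37.4 to 293 CPM in tumor (2-sided exact permutation p = 0.491). Of the 5 genes of that list tested, 4 passed as higher. Pecam1 averaged 103.6 CPM in spleen and 65.1 CPM in tumor and did not pass. Col3a1 and Dcn, which passed as higher, were at most 0.702 and 0.0986 CPM in spleen and reached 93.2 and 68.1 CPM in tumor. Col1a1 and Col1a2 were at most 0.717 and 0.307 CPM in spleen and reached 30.7 and 17.2 CPM in tumor. The labelled genotypes also differed in sex-linked transcripts. Xist was 56.7 to 530 CPM in the WT libraries of both tissues and 0.502 to 3.34 CPM in the Flox libraries, and Ddx3y was 0 to 127 and 281 to 656 CPM. Differences that follow these transcripts and differences that follow the labelled genotype cannot be told apart. The part that any of these transcripts plays in the values below was not tested. In RNA from bulk sorted cells, fewer cells that express a gene and less RNA per cell cannot be told apart.

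In tumor against spleen, 6 of the 10 effector genes rose and 1 fell in the fit over all 14 libraries with genotype as a covariate. Il10, Ebi3, Tgfb1, Fgl2, Entpd1 and Lgals1 were higher, Gpr83 was lower, and Lrrc32, Itgb8 and Nt5e did not pass edgeR's quasi-likelihood test at an adjusted p of 0.05. Of all 12008 genes tested, 22.5% passed, 12.3% as higher and 10.2% as lower. The median log2 change was 1.63 over the 10 genes and 0.03 over all genes tested. The 7 genes that passed were also those in which the 7 tumor and 7 spleen libraries did not overlap, a pattern seen for 9.39% of tested genes, 5.91% in the higher and 3.48% in the lower direction.

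Within each labelled genotype fewer genes passed. In the 8 WT libraries Fgl2 and Lgals1 rose and Gpr83 fell, where 7.1% of 10560 tested genes passed, 3.9% as higher and 3.2% as lower. In the 6 Flox libraries Fgl2 and Entpd1 rose, where 7.87% of 10760 tested genes passed, 4.15% as higher and 3.72% as lower. The tissues did not overlap for 7 effector genes in the higher and 1 in the lower direction within each genotype. Among all tested genes the share was 9.6% higher and 8.38% lower in WT and 16.9% higher and 16.1% lower in Flox.

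**Figure D1:**
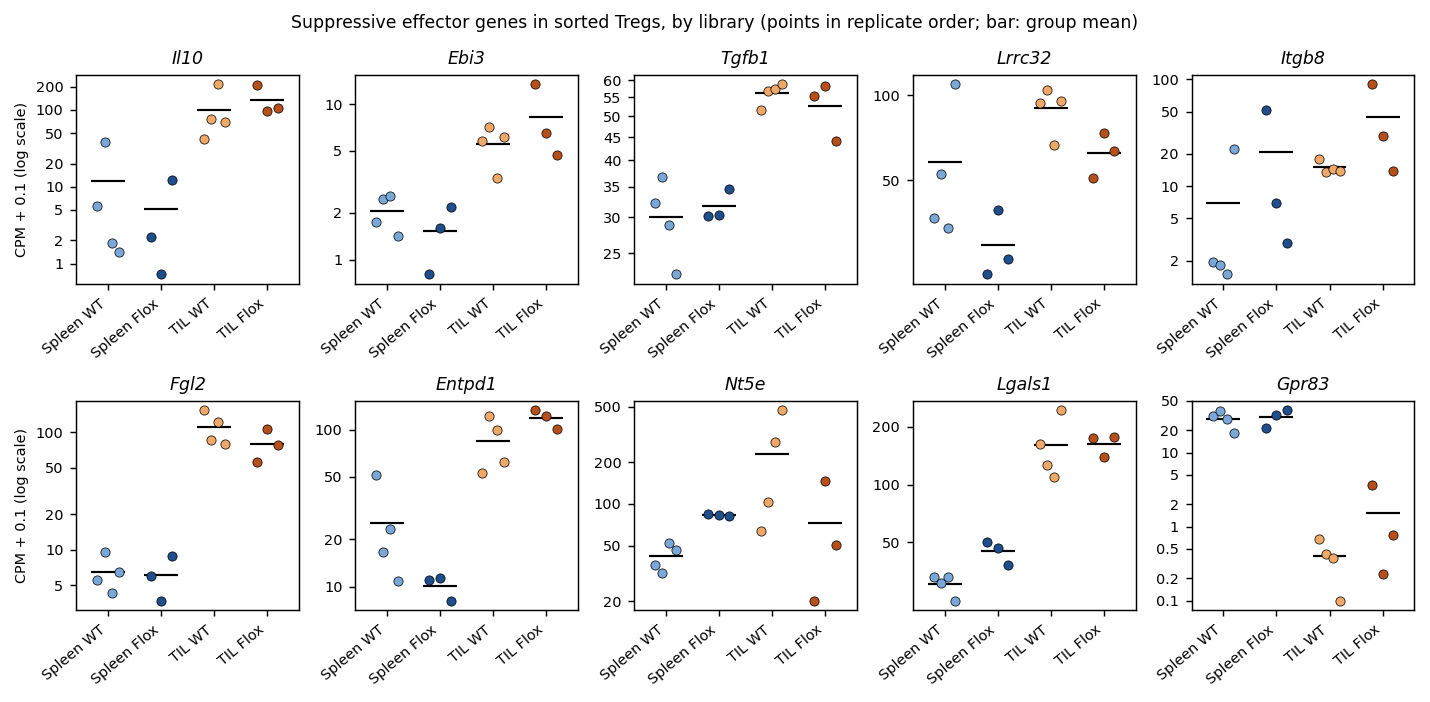
CPM plus 0.1 of each effector gene in each library (points, log axis, by group); horizontal lines are group means. Fgl2 lies at 3.61 to 9.52 CPM in spleen and 55.2 to 153 CPM in tumor, whereas Gpr83 lies at 18.4 to 37.2 CPM in spleen and at most 3.55 CPM in tumor.

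**Figure D2:**
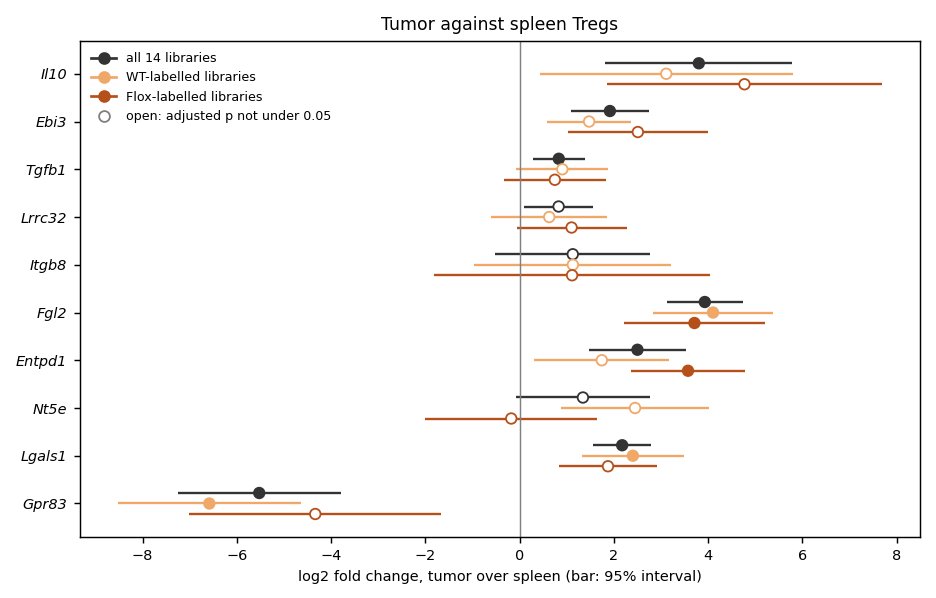
Log2 fold change of tumor against spleen for the effector genes, over all 14 libraries and within each labelled genotype, with 95% limits. Over all 14 libraries the changes run from -5.53 for Gpr83 to 3.93 for Fgl2.

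Promoters are printed for the members with the largest tissue changes in each direction, Fgl2 and Gpr83, and for the ectoenzyme Entpd1, so that the gene starts can be read beside the values. Each is the RefSeq sense strand in GRCm38.p6 from 250 bases before to 50 bases after a start site in the RefSeq promoter table, in lower case with motif matches in capitals. For Fgl2 and Entpd1 that site is the first base of the gene span given with each gene below, and for Gpr83 it is base 14860210, which lies 330 bases inside the gene span.
Fgl2, chr5:21372423-21372722, plus strand: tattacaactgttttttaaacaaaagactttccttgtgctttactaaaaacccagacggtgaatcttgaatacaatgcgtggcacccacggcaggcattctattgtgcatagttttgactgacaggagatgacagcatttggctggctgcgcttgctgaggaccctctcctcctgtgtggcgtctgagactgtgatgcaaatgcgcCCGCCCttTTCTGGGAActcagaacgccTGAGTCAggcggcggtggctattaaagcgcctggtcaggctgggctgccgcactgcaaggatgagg
Entpd1, first annotated start, chr19:40612116-40612415, plus strand: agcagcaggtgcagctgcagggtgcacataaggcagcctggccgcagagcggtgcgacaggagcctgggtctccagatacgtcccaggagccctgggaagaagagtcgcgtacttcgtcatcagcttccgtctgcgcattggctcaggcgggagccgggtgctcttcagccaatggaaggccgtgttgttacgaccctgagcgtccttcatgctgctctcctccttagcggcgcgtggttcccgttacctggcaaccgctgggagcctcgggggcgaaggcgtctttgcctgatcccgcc
Gpr83, chr9:14859960-14860259, plus strand: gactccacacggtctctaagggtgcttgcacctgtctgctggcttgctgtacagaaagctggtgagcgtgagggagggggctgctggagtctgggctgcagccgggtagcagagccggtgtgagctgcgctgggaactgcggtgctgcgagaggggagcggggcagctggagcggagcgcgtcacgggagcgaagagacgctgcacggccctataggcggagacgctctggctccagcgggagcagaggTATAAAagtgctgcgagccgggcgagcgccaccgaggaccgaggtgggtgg

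The promoters were searched on both strands for AP-1 (TGANTCA), STAT (TTCNNNGAA), forkhead (TGTTTAC), the hypoxia response core (ACGTG), the GC box (GGGCGG) and the TATA box (TATAAA). RefSeq entries were found for 7 of the 10 genes, in 8 promoters, because Entpd1 has 2 annotated starts. The Fgl2 promoter held a GC box 44, a STAT match 36 and an AP-1 match 16 bases before the start, none overlapping another. Among 32851 promoters of the same length, 35.7% held the GC box, 8.3% the STAT motif and 7.81% the AP-1 motif. The Gpr83 promoter held a TATA box starting 1 base before that inner start site, a motif present in 13.6% of all promoters. Neither Entpd1 promoter held any of these 6 motifs. The Gpr83 promoter was 67% G or C with 24 CpG, the first Entpd1 promoter 64% with 23 CpG and the Fgl2 promoter 51.7% with 12 CpG, beside medians of 52.7% and 7 CpG over all promoters. The Tgfb1 promoter held 6 GC boxes and the Nt5e promoter 4, in overlapping pairs in the latter. These matches describe the letters of the windows only.

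Il10 (NCBI Gene 16153, chromosome 1, 131019845 to 131024970, GRCm38.p6) encodes a cytokine that limits inflammation through myeloid and T cells. It read 5.53, 38.5, 1.78 and 1.32 CPM in the 4 spleen WT libraries and 2.11, 0.622 and 12.2 CPM in the 3 spleen Flox libraries. In tumor it read 42, 75.5, 218 and 68.9 CPM in the WT libraries and 208, 96.2 and 105 CPM in the Flox libraries. Every tumor library exceeded every spleen library, although the lowest tumor library was close to Spleen WT 2, which stood far above the other spleen WT libraries. Il10 rose by 3.80 ± 0.93 on the log2 scale in tumor, a fold of 13.9 (edgeR adjusted p = 0.00962), and by 4.96 without Spleen WT 2 (edgeR adjusted p = 0.00104). Its genotype contrasts were 0.39 ± 0.75 in tumor and -1.23 ± 1.40 in spleen, and the latter was 0.79 without both WT 2 libraries, so no direction held.

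Ebi3 (Gene 50498, chromosome 17, 55952623 to 55957022) was low in both tissues, at 0.702 to 2.47 CPM in spleen and 3.24 to 13.4 CPM in tumor. TIL Flox 1 held the highest Ebi3 value. Ebi3 rose by 1.91 ± 0.38 on the log2 scale, a fold of 3.77 (edgeR adjusted p = 0.0031). It shares 270 exonic bases with the antisense gene Gm16712, and without a stated strand setting reads from the overlap cannot be assigned. The genes of its partner chains were hardly detected: Il12a, the IL-35 chain, held 18 counts over the spleen libraries and 4 over the tumor libraries, and Il27, which encodes the IL-27 chain, held 0 and 22.

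Of 13 other genes of IL-10 and IL-35 production and reception 11 were tested, of which 6 had higher and 5 had lower values in tumor, 3 passed, and the median log2 change was 0.10. The 3 passing genes stand beside 22.5% of all genes tested, so the count is near the background. All 3 were higher: Maf, a transcription factor that activates Il10, from 439 to 964 CPM in spleen to 3083 to 5605 CPM in tumor (2.81 ± 0.20, edgeR adjusted p = 2.42e-06), the signal transducer Stat3 (1.59 ± 0.26) and the receptor chain Il12rb2 (3.72 ± 1.02, and 2.89 without TIL Flox 2). Prdm1, which encodes Blimp-1, a transcriptional regulator that supports Il10 in effector Tregs, was at 2.54 ± 1.07 and did not pass (edgeR adjusted p = 0.104). Without Spleen WT 4 Prdm1 was at 4.11, which passes (edgeR adjusted p = 0.0022).

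Tgfb1 (Gene 21803, chromosome 7, 25687002 to 25705077) varied little between libraries of one group. Its values were 22.4 to 36.7 CPM in spleen WT, 30.1 to 34.4 CPM in spleen Flox, 51.4 to 58.7 CPM in tumor WT and 44 to 58.2 CPM in tumor Flox. The tissues did not overlap, and the gap between them was small. Tgfb1 rose by 0.83 ± 0.26, a fold of 1.78 (edgeR adjusted p = 0.0327), and this call was lost in 14 of 24 alternatives. Among them were the omission of any one of Spleen WT 1, 3 and 4, the 3 spleen Flox libraries, TIL Flox 1 and TIL Flox 2, with edgeR adjusted p of 0.052 to 0.066.

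Lrrc32 (Gene 434215, chromosome 7, 98489305 to 98501831) read 36.7, 52.8, 33.7 and 110 CPM in spleen WT and 23.2, 39.2 and 26.4 CPM in spleen Flox. In tumor it read 94.1, 105, 66.9 and 95.3 CPM in WT and 51.1, 73.3 and 63.5 CPM in Flox. Spleen WT 4 alone lay above all tumor libraries. With that library the log2 change was 0.83 ± 0.34 (95% limits 0.10 to 1.55, edgeR adjusted p = 0.0965), and without it 1.11 with an adjusted p of 0.020 in edgeR, which passes.

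Itgb8 (Gene 320910, chromosome 12, 119162803 to 119238276) varied widely between libraries of one group. It read 1.84, 1.72, 1.38 and 22.4 CPM in spleen WT, 51.9, 6.84 and 2.85 CPM in spleen Flox, 18, 13.4, 14.4 and 13.6 CPM in tumor WT, and 90.5, 29.5 and 13.8 CPM in tumor Flox. In both tissues the Flox 1 library was the highest, and spleen and tumor overlapped. The tissue change was 1.13 ± 0.77 (95% limits -0.52 to 2.77, edgeR adjusted p = 0.319), and 2.17 without Spleen WT 4 or 1.83 without Spleen Flox 1, neither of which passed. The genotype contrast in tumor was 1.58 ± 0.68 (95% limits -0.01 to 3.17, edgeR adjusted p = 0.584) and 0.55 without both Flox 1 libraries; in spleen it was 1.61 ± 1.33 and -0.50 without them.

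Of 11 genes that release or present TGF-beta, 8 were tested, 8 had higher values in tumor and 5 of these passed, with a median log2 change of 4.06. Of all genes tested, 12.3% passed as higher. In the spleen libraries alone only 4 of the 11 were high enough to be tested. The others could enter the fit through their tumor values, so the filter partly set their direction. The list was chosen with earlier results of these data known, so its counts are a description only. Itgav, the alpha chain that pairs with Itgb8, went from 41.5 to 167 CPM in spleen to 483 to 1727 CPM in tumor (3.21 ± 0.36, edgeR adjusted p = 5.26e-05). The protease Furin, which cleaves the TGF-beta precursor, rose by 1.11 ± 0.32, a call lost without Spleen WT 3 (edgeR adjusted p = 0.053). The matrix protease Mmp14 rose by 5.77 ± 1.28, and by 3.19 without TIL WT 4, which held 349.6 CPM where the tumor median was 5.66 CPM. Ltbp4 and Ltbp1, which anchor latent TGF-beta in the matrix, rose by 4.67 ± 0.86 and 4.69 ± 1.5, and Ltbp4 by 4.02 without TIL WT 4. Ltbp4 held 5 counts over the spleen libraries and 133 over the tumor libraries, and Mmp14 held 39 and 3100. Ltbp1 ran from 0.323 to 936 CPM among the tumor WT libraries and from 0.676 to 1.98 CPM in tumor Flox, and its call was lost with 9 of the 14 libraries left out in turn: Spleen WT 1, 2 and 4, all spleen Flox libraries, TIL WT 1, TIL WT 3 and TIL Flox 1. Without Spleen WT 3 it was 7.02. Of 5 tested fibroblast and endothelial markers 4 passed as higher, with a median log2 change of 5.51. In the spleen libraries alone 1 of that list was tested, so here too the filter partly set the direction. Col3a1 and Dcn moved in the same direction as the TGF-beta genes named above and Pecam1 did not. The part of stromal transcripts was not tested.

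Fgl2 (Gene 14190, chromosome 5, 21372673 to 21378386) encodes a secreted fibrinogen-like protein that binds the inhibitory Fc receptor Fcgr2b, and its change had the smallest p of the 10 genes, ranking 35 among all tested genes. It read 5.43, 9.52, 4.24 and 6.39 CPM in spleen WT and 5.92, 3.61 and 8.71 CPM in spleen Flox. In tumor it read 153, 84.9, 123 and 79.7 CPM in WT and 55.2, 105 and 77 CPM in Flox. The lowest tumor library was several times the highest spleen library. Fgl2 rose by 3.93 ± 0.38, a fold of 15.2 (edgeR adjusted p = 1.86e-05), and passed within the WT libraries alone (4.10 ± 0.57, edgeR adjusted p = 0.00674) and within the Flox libraries alone (3.71 ± 0.63, edgeR adjusted p = 0.0241). Fgl2 lies within the span of Ccdc146 on the opposite strand with no shared exonic bases. Ccdc146 read 0.401 to 2.76 CPM in spleen and 0 to 0.94 CPM in tumor. These ranges overlap, and Ccdc146 was too low to be tested.

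Lgals1 (Gene 16852, chromosome 15, 78926725 to 78930465) encodes galectin-1, a lectin that binds glycans on activated T cells. It read 33, 30.6, 32.8 and 24.6 CPM in spleen WT and 50, 46.8 and 38.1 CPM in spleen Flox. In tumor it read 162, 126, 110 and 244 CPM in WT and 175, 140 and 176 CPM in Flox. All tumor libraries lay above all spleen libraries. Lgals1 rose by 2.17 ± 0.29, a fold of 4.52 (edgeR adjusted p = 0.000193). Within WT it passed (2.40 ± 0.48, edgeR adjusted p = 0.0225), and within Flox it was 1.87 ± 0.44 and did not (edgeR adjusted p = 0.0513). The difference between the genotypes in this change was -0.54 ± 0.56 (edgeR adjusted p = 0.769).

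Of 11 genes of galectins, of Fgl2 receptors and of related ligands and enzymes, 9 were tested, 8 had higher values in tumor and 5 passed as higher, with a median log2 change of 1.96. Among all genes tested, 12.3% passed as higher. In the spleen libraries alone 7 of the 11 were tested, so some could enter the fit through their tumor values. This list too was chosen with earlier results of these data known. Havcr2 (TIM-3, a galectin-9 receptor) rose by 6.72 ± 0.76 (edgeR adjusted p = 5.86e-05) and Lag3, an inhibitory receptor bound by FGL1, by 4.72 ± 0.58. The galectin genes Lgals3 and Lgals8 rose by 4.02 ± 0.47 and 2.31 ± 0.60, and Lgals8 by 1.54 without TIL WT 1. Without TIL WT 4 Havcr2 rose by 5.93. Fcgr3, a low-affinity Fc receptor of myeloid cells, rose by 1.96 ± 0.61 on 35 counts in spleen and 94 in tumor, a call lost with 7 of the 14 libraries left out in turn: Spleen WT 1, 3 and 4, Spleen Flox 1 and 2, TIL WT 1 and TIL Flox 3.

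Entpd1 (Gene 12495, chromosome 19, 40612366 to 40741602) read 51.4, 16.5, 23.2 and 10.7 CPM in spleen WT and 10.9, 11.2 and 8.04 CPM in spleen Flox. In tumor it read 52.7, 122, 99.2 and 61.9 CPM in WT and 132, 122 and 101 CPM in Flox. Tumor and spleen did not overlap, with Spleen WT 1 just below TIL WT 1. Entpd1 rose by 2.50 ± 0.48, a fold of 5.65 (edgeR adjusted p = 0.00258). The span of Entpd1 holds 3 other annotated genes, 2 of them pseudogenes, and none shares exonic bases with it. Within Flox the change was 3.57 ± 0.51 and passed (edgeR adjusted p = 0.0209); within WT it was 1.74 ± 0.63 and did not (edgeR adjusted p = 0.122).

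Nt5e (Gene 23959, chromosome 9, 88327609 to 88372089) read 36.3, 31.9, 52.1 and 46.8 CPM in spleen WT and 84.2, 82.8 and 81.7 CPM in spleen Flox. In tumor it read 63.9, 103, 277 and 470 CPM in WT and 20.1, 146 and 50.8 CPM in Flox. The spleen Flox libraries lay above all spleen WT libraries and close together, whereas the tumor libraries spread widely. The tissue change over all libraries was 1.34 ± 0.66 (95% limits -0.08 to 2.76, edgeR adjusted p = 0.163), with 2.45 ± 0.69 within WT (edgeR adjusted p = 0.068) and -0.18 ± 0.76 within Flox (edgeR adjusted p = 0.903).

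The relation between the ectoenzymes was read as the ratio of Entpd1 to Nt5e per kilobase of exon, which compares their levels per length. The ratio was 1.3, 0.476, 0.409 and 0.210 in spleen WT and 0.119, 0.124 and 0.0905 in spleen Flox. In tumor it was 0.759, 1.09, 0.329 and 0.121 in WT and 6.06, 0.769 and 1.83 in Flox. Every spleen Flox library lay below every spleen WT library, and the tumor groups overlapped. Nt5e alone already separated these spleen groups, and neither gene passed by genotype in spleen (both edgeR adjusted p = 0.674). How often ratios of other gene pairs separate them was not counted. The spleen libraries with the lower ratio, Flox, also had the lower B cell marker sums; the part of those cells was not tested.

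**Figure D3:**
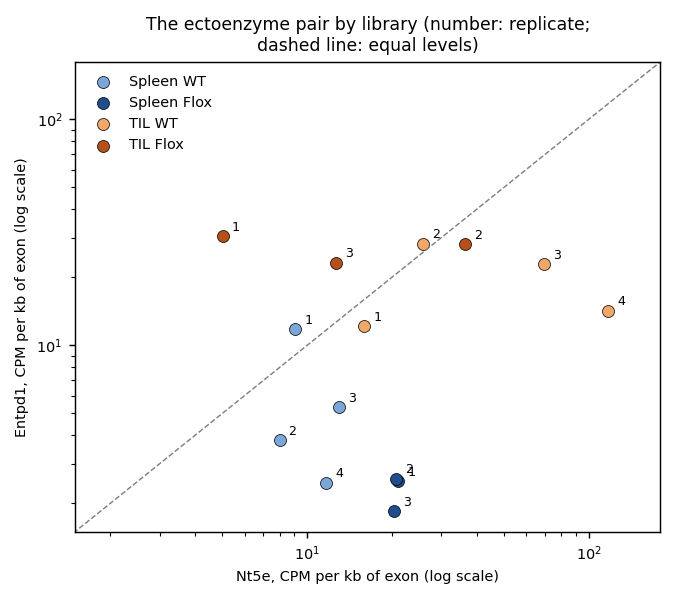
Entpd1 against Nt5e CPM per kilobase of exon (log axes), 1 point per library. TIL Flox 1 has the highest ratio, 6.06, and the 3 spleen Flox libraries lie at 0.0905 to 0.124, near TIL WT 4 at 0.121.

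Of 16 other genes of ATP and adenosine handling, 8 were tested, 3 had higher and 5 had lower values, the median log2 change was -0.35 and 1 passed. Of all genes tested, 22.5% passed, 10.2% as lower, and the median was 0.03, so 1 of 8 is not above the background. The list was chosen with earlier results of these data known, so its counts are a description only. P2rx7, an ATP-gated channel through which extracellular ATP can kill T cells, went from 151 to 684 CPM in spleen to 1.27 to 39.9 CPM in tumor (-5.08 ± 0.96, edgeR adjusted p = 0.00216, -6.03 without TIL WT 2 and -6.17 without TIL Flox 3).

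Gpr83 (Gene 14608, chromosome 9, 14859880 to 14870789), a G protein-coupled receptor long known as a Treg-enriched transcript, was the only member that fell. It read 31.1, 36.9, 28.8 and 18.4 CPM in spleen WT and 21.2, 32 and 37.2 CPM in spleen Flox. In tumor WT it was 0.586, 0.323, 0.282 and 0 CPM, from 3, 3, 2 and 0 counts, and in tumor Flox 3.55, 0.128 and 0.676 CPM, from 34, 1 and 6 counts. Spleen and tumor were far apart, and TIL Flox 1 held most of the tumor counts. Gpr83 fell by 5.53 ± 0.81 on the log2 scale, a fold of 46.1 (edgeR adjusted p = 0.00039). Without TIL Flox 1 the change was -6.43. Within WT the change was -6.59 ± 0.86 (edgeR adjusted p = 0.00565), and within Flox -4.34 ± 1.11, which did not pass (edgeR adjusted p = 0.064).

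Read per kilobase of exon, the order of the 10 genes changed with tissue. Lgals1 was the highest in all 7 spleen libraries at 30.8 to 62.5 CPM per kilobase and ranked 1 or 2 in tumor at 137 to 305. Il10 ranked 1 to 3 in tumor at 32.1 to 166 CPM per kilobase and had 0.475 to 29.4 in spleen. Gpr83 ranked 4 or 5 in spleen at 5.14 to 10.4 CPM per kilobase and 10 in every tumor library at 0 to 0.99. Nt5e ranged over 7.99 to 21.1 in spleen and 5.02 to 118 in tumor on this scale, so its place in tumor was not separated from its neighbours.

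**Figure D4:**
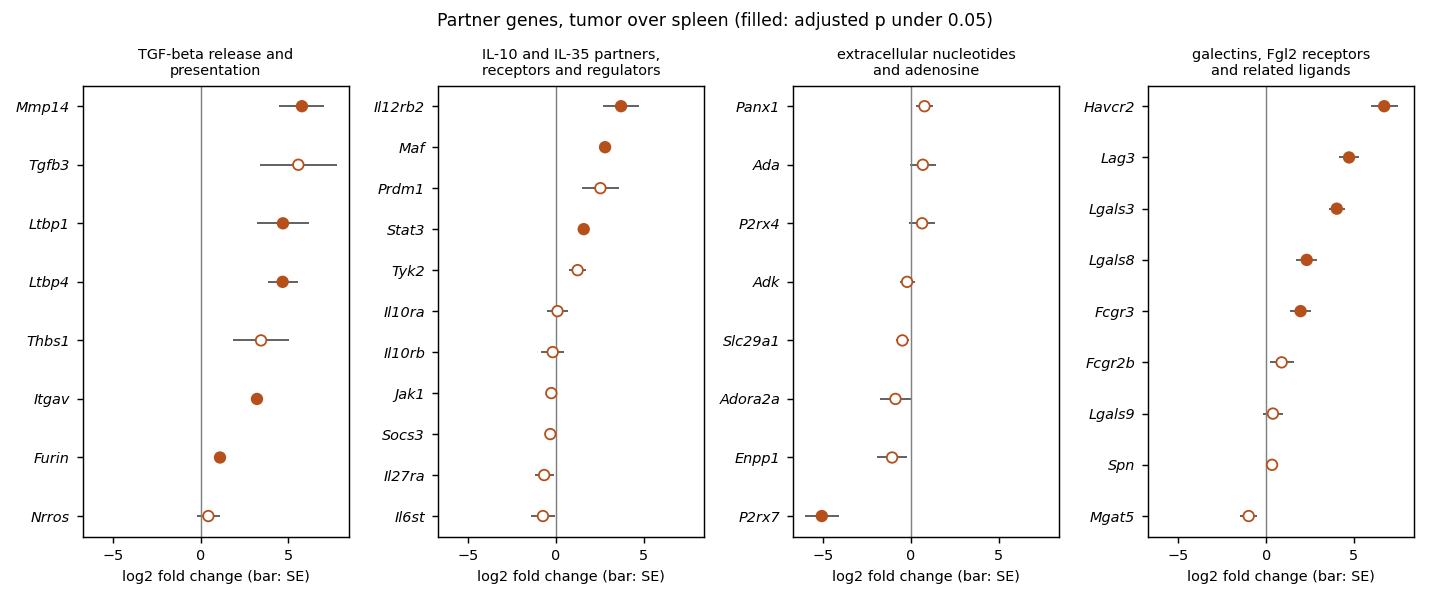
Log2 fold change of tumor against spleen (± SE) for the tested genes of the 4 partner lists. Itgav, Maf, Havcr2 and Lag3 are among those that passed as higher, and P2rx7 as lower.

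Flox against WT within tumor gave no call. In edgeR 0 of 10777 genes passed, 8.08% had an unadjusted p under 0.05, and DESeq2 and limma voom called 266 and 1 genes. Of the 9 effector genes tested, 0 passed in any of the 3 tools and 0 had an unadjusted p under 0.05 in edgeR, with edgeR adjusted p from 0.584 to 0.993. The groups overlapped for all 10 genes, whereas they did not overlap for 5% of the genes tested. The contrast was 0.39 ± 0.75 for Il10, 0.57 ± 0.47 for Ebi3, -0.10 ± 0.49 for Tgfb1, -0.53 ± 0.51 for Lrrc32 and -0.48 ± 0.57 for Fgl2. It was 0.47 ± 0.56 for Entpd1, -1.65 ± 0.99 for Nt5e (95% limits -3.95 to 0.64, and -2.73 without TIL Flox 2) and 0.03 ± 0.51 for Lgals1. Gpr83 was too low to be tested in the fit; its mean was 1.45 CPM in Flox and 0.298 CPM in WT (2-sided exact permutation p = 0.343, where the smallest p possible is 0.0286). In fits that kept Gpr83 its contrast was 2.28 without the filter and 2.31 with all 14 libraries, and neither passed. The limits are wide, so these values do not show that the groups are alike.

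**Figure D5:**
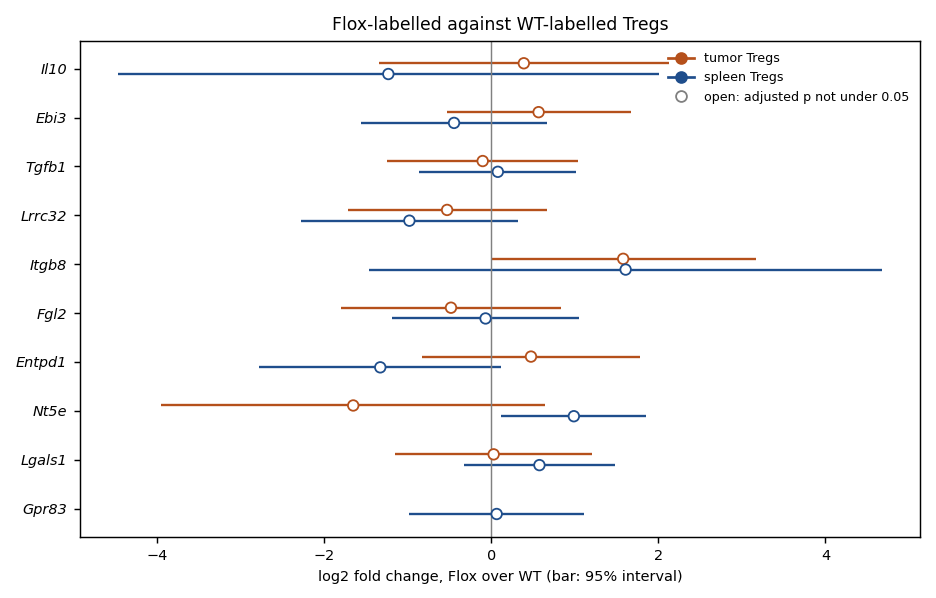
Log2 fold change of Flox against WT with 95% limits, in tumor and in spleen. For each effector gene that was fitted, no adjusted p passed, and the widest limits belong to the genes with scattered libraries, such as Itgb8 and Il10.

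Flox against WT within spleen gave no call in edgeR either: 0 of 10935 genes passed, 6.86% had an unadjusted p under 0.05, and DESeq2 and limma voom called 124 and 0. Of the 10 effector genes 0 passed in any tool and 1 had an unadjusted p under 0.05 in edgeR. That gene was Nt5e, at 82.9 ± 1.29 CPM in Flox (SD, n = 3) and 41.8 ± 9.28 CPM in WT (SD, n = 4), a log2 contrast of 0.99 ± 0.38 (edgeR 95% limits 0.12 to 1.86, adjusted p = 0.674). The Flox libraries lay above all WT libraries for Nt5e and for Lgals1 (log2 0.58 ± 0.39), as they did for 2.75% of tested genes. Groups did not overlap for 5.88% of genes in either direction, 3.13% with Flox lower. Entpd1 was lower in value at -1.33 ± 0.63 and did not pass (edgeR unadjusted p = 0.0668). Lrrc32 read -0.98 ± 0.56, Ebi3 -0.45 ± 0.48, Tgfb1 0.08 ± 0.41, Fgl2 -0.07 ± 0.49 and Gpr83 0.06 ± 0.45. No gene of the 4 partner lists passed in either genotype contrast.

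The genotype contrast was set between tissues in 1 fit of all 14 libraries. In edgeR 0 of 12008 genes passed, 10.8% had an unadjusted p under 0.05, and DESeq2 and limma voom called 157 and 0. Of the 10 effector genes 0 passed and 2 had an unadjusted p under 0.05, the ectoenzyme genes in opposite directions. For Nt5e the tumor contrast minus the spleen contrast was -2.65 ± 1.03 (95% limits -4.87 to -0.43, edgeR adjusted p = 0.425), and for Entpd1 it was 1.84 ± 0.79 (95% limits 0.14 to 3.53, edgeR adjusted p = 0.442). For Gpr83 it was 2.24 ± 1.26 (edgeR adjusted p = 0.534).

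The gene with the most similar profile was found for each member as the smallest root mean square difference of centred log2 values over the 14 libraries, among 10629 genes. For Tgfb1 it was B2m (0.163), for Lgals1 Bcl2l1 (0.243), for Fgl2 Ctla2a (0.364), for Gpr83 Bach2 (0.628) and for Entpd1 Ubald2 (0.557). For Il10 it was Ets2 (0.916) and for Itgb8 Tjp3 (1.05). For Lrrc32 it was Fbxo4 (0.315), for Ebi3 H2ac23 (0.354) and for Nt5e Usp25 (0.628). A difference is to be read against the spread of the member itself, whose SD over the libraries was 2.60 for Il10, 1.66 for Itgb8 and 0.45 for Tgfb1 on the same scale.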

How the data were processed

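Gene counts were deposited by the authors as 1 table of raw, whole-number reads per gene, and the build mm10 is named per the submitters' processing notes. The aligner, the counter, its annotation and the strand setting are each not given in the sources used, so reads of overlapping or antisense genes cannot be separated. Of 27179 gene IDs, 25275 matched RefSeq (GRCm38.p6), 18 more matched GENCODE M21, and the 1886 unmatched held 1.25 to 1.94% of a library's counts. They stayed in the tests.

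The 14 libraries held 4859099 to 10333892 counts, and no pair of replicates was a duplicate (chi-square per degree of freedom 92.1 to 391). Counts were tested with edgeR 4.0.16 (quasi-likelihood, TMM, filterByExpr) under R 4.3.3. P-values were adjusted by Benjamini-Hochberg across every tested gene, and 0.05 was the threshold. The SE is the log2 fold change over the square root of F. Tumor against spleen was fitted over all libraries with genotype as a covariate, genotype within each tissue on that tissue's libraries, and the difference between tissues as an interaction. The tests were tested on simulated data. There the tissue fit recovered 0, 34, 55.3 and 75.5% of changes of 2, 4, 8 and 16 fold. The spleen genotype fit recovered 2, 2.04, 6.12 and 27.7%. The tumor genotype fit recovered 0% up to 8 fold and 2.08% at 16 fold, and the difference fit 0% and 2%. The genotype and difference fits could therefore miss most changes of these sizes. Single values used 2-sided exact permutation tests (scipy 1.17.1). CPM per kilobase used the union of exons, in log2 profiles an offset of 0.5. Alternatives were DESeq2 1.42.0, limma 3.58.1 voom, RLE factors, other filters, the replicate block and omitted libraries (both Flox 1 libraries together, and single omissions for the partner genes, were added after the data were seen), and 95% limits came from the SE. All 10 members are named, with the genes of the partner lists that passed and the single most similar gene. The members and lists were chosen with earlier results of these data known. Figures used matplotlib 3.10.9 in Python 3.11.15.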

Additional observations from a re-analysis of the deposited data

Results flagged for a closer look

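Of 20 groups of 4 libraries tested for an outlying library by Dixon's ratio, 2 had one, and chance gives about 1 in 20. Only the WT groups hold 4 libraries, so the Flox groups, with 3 libraries each, were not screened. Il10 in Spleen WT 2 was 38.5 CPM, while the other spleen WT libraries read 1.32 to 5.53 CPM (ratio 0.887). Itgb8 in Spleen WT 4 was 22.4 CPM, while the others read 1.38 to 1.84 CPM (ratio 0.978).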

How the results depend on the processing

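Of the 10 members, 7 passed in tumor against spleen, and 6 to 7 did with 1 library left out. Within WT and within Flox alone 3 and 2 passed, with fewer libraries; 750 and 847 genes passed there, beside 2699 over all. In tumor DESeq2 called 266 and voom 1 gene by genotype. In spleen DESeq2 called 124, a fit of all 14 libraries 4, the filter of 5 CPM 1, the fit without both WT 2 libraries 1, and single omissions 0 to 1. For the difference DESeq2 called 157, and single omissions 0 to 1. No member passed in any genotype or difference fit. Lrrc32 also passed in DESeq2 (0.86) and voom (1.00). These signs turned. Nt5e was -0.18 by tissue within Flox. In tumor by genotype Lgals1 was -0.067 without both WT 2 and -0.017 without both Flox 1 libraries (single omissions -0.094 to 0.30), Il10 was -0.046 without Flox 1 (-0.046 to 1.15), and Tgfb1 ran from -0.21 to 0.033. In spleen Fgl2 was 0.048 in voom and 0.17 without WT 2 (-0.40 to 0.20), Il10 was 0.79 without WT 2 (-3.07 to 0.79), Itgb8 was -0.50 without Flox 1 (-0.50 to 3.65), Tgfb1 ran from -0.037 to 0.17 and Gpr83 from -0.11 to 0.26. For the difference Itgb8 was 0.011 with RLE, 0.033 with the 5 CPM filter, 0.014 in DESeq2, 0.26 without WT 2 and 1.03 without Flox 1 (-2.05 to 2.08), Il10 was -0.54 without WT 2 (-0.38 to 3.48), and Lrrc32 ran from -0.055 to 0.70. The causes were not tested.

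Same-numbered libraries were little alike within their groups (correlations -0.0298 to 0.0526 over 13 pairs). With so few libraries per group, this cannot show whether any of them share a mouse. With the replicate block 7 members and 2050 genes passed by tissue; Itgb8 then passed (2.06) and Tgfb1 did not (0.84). By genotype in spleen the block gave -0.031 for Tgfb1 and -0.13 for Gpr83, and 0 members passed.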

Other observations

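TIL Flox 1 held the highest tumor value of 4 members, Ebi3, Itgb8, Entpd1 and Gpr83, and the lowest of 3, Lrrc32, Fgl2 and Nt5e. No other tumor library held more than 3 highest values. In spleen, WT 2 was highest for Il10, Tgfb1 and Fgl2, and Flox 1 for Itgb8, Nt5e and Lgals1.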
